A study of Camellia sinensis with 9 samples.

Results

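Transcripts lying inside introns of annotated genes, and single-exon transcripts that could be fragments of unspliced precursor RNA, were examined in 3 organs of Camellia sinensis, the tea plant: root, flower and leaf. They were selected by class code alone, which says how an assembled transcript lies against the reference annotation: code i marks a transcript within a reference intron, and code e a single exon that overlaps a reference exon and part of an intron. The table held 248 transcripts of class i and 434 of class e, together 682 of 109879 (0.621%). Each tissue had 3 libraries, here called root 13, 23 and 33, flower 1, 2 and 45, and leaf 1, leaf 41 and the unnumbered leaf library, whose column number matches no leaf title. All plants were untreated. The labels give no cultivar, no plant age and no statement that the 3 libraries of a tissue are from different plants, so the spread behind each p-value may be technical.

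Introns are removed from precursor RNA during splicing and are then mostly degraded. RNA that maps to an intron can come from precursor not yet spliced, from an intron kept in the final transcript, or from a separate transcription unit inside the host gene, on either strand. In plants, intron retention is the most frequent kind of alternative splicing, and several microRNA and small nucleolar RNA genes are known to lie in introns. Libraries made from ribosome-depleted total RNA, as here, keep RNA without a poly(A) tail. Identifiers in the table come without gene names, so the role of a host gene cannot be given, and no list of tissue markers or pathway genes could be applied. Positions are starts and ends on scaffolds that the table does not name.

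Abundance is given in FPKM, fragments relative to the length of the transcript and the size of the library, as the authors deposited it. Leaf 1 had the lowest sum of FPKM (623826) and flower 1 the highest (1250930). Low values of transcripts without a strand that are alone in their locus lie on steps of whole fragments. By these steps, 1 FPKM at a span of 1000 nt was worth 14.0 fragments in root 23, the shallowest library, and 26.0 in leaf 1, the deepest. A listed 0 at that span is compatible with levels up to a limit of 3 fragments, or 0.116 FPKM in leaf 1 and 0.215 FPKM in root 23, which covers counting error only. Leaf 41 stood apart from the other leaf libraries over all tested transcripts, not in class e alone. Pearson's r of log2(FPKM + 1) with leaf 1 and the unnumbered library was 0.764 and 0.768, against 0.947 between those. In class i these values were 0.512, 0.526 and 0.912. The values of leaf 41 are given beside each result that it decides.

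The transcripts of class i were short. Their median span was 610 nt (quartiles 368 and 1137 nt, longest 8764 nt), where class e had a median of 1378.5 nt (852 and 2276 nt, longest 9495 nt) and reference transcripts one of 1990 nt. Spans under 400 nt, where FPKM rests on a short effective length, belonged to 70 of class i and 22 of class e. Of class i, 73 lay on the plus strand, 80 on the minus strand and 95 had no strand. Those without a strand were shorter, with a median of 446 nt against 877 nt. In class e, 217 lay on each strand. Of class i, 207 were the single transcript of their locus, and the 248 belonged to 237 loci, so some share a locus and most of their sequence. Each class e transcript had a locus of its own, in 422 of 434 cases together with other transcripts.

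Host genes of class i were sought through the locus numbers, on the assumption that these run along the scaffolds. The table names no scaffold, so each host is an assignment and every comparison with a host rests on it. For all 248 transcripts a reference transcript within 3 locus numbers enclosed the member, and for 247 there was exactly 1 such candidate. The same search found an enclosing reference transcript for 2.07% of the 36531 intergenic transcripts, which by their class should have none. The 224 distinct hosts had a median span of 10574 nt, and 20 of them held several class i transcripts. Relative to the host, 65 members lay on the same strand and 88 on the opposite strand. Divided into 3 equal stretches from 5′ to 3′, the hosts held 63 members in the first stretch, by midpoint, 116 in the middle one and 69 in the last.

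Class e could be placed on its reference directly, since 422 of 434 shared a locus with a reference transcript they overlap, and all 422 lay on its strand. The median overlap was 889.5 nt. Only 69 (16.4%) stayed within the ends of the reference. Another 91 (21.6%) ran past its start, 85 (20.1%) past its end and 177 (41.9%) past both, by medians of 211.5 nt at the start and 259.5 nt at the end. The member was longer than the whole reference span in 254 cases.

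Most of these transcripts were low. The threshold for testing, 1 FPKM or more in 3 or more libraries, was passed by 119 of class i (48.0%) and 249 of class e (57.4%), against 50.8% of all transcripts. The remaining 129 and 185 were not tested, and 3 of class i and 2 of class e were listed at 0 in all 9 libraries. The members nearest to the threshold were MSTRG.14031.1 outside it and MSTRG.16607.1 inside it in class i, whose values in the library that decides the threshold were 0.995 and 1.0 FPKM, and MSTRG.35742.1 and MSTRG.20153.2 in class e, with 0.990 and 1.0 FPKM. Among tested members the median of the mean level was 1.67 FPKM in class i and 2.33 FPKM in class e, where tested reference transcripts had 6.01 and tested intergenic ones 1.94 FPKM. A mean of 10 FPKM or more was seen for 13 of class i and 48 of class e, and of 100 FPKM or more for 0 and 7. Counting transcripts at 1 FPKM or above, a root library held 73.7 ± 5.69 of class i, a flower library 82.7 ± 1.15 and a leaf library 86.7 ± 19.0 (SD, n = 3). For class e the counts were 165 ± 7.0, 175 ± 15.5 and 213 ± 14.2. The depth per FPKM was highest in the leaf libraries, and its part in the leaf counts was not tested.

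Class e took a larger part of the RNA in root than in flower. It held 0.465%, 0.444% and 0.444% of summed FPKM in root 13, 23 and 33 and 0.194%, 0.177% and 0.239% in flower 1, 2 and 45. The leaf libraries were split: leaf 1 had 0.413% and the unnumbered library 0.316%, below every root library, while leaf 41 had 1.73%, above every other library. The root mean was 0.451% ± 0.0125, the flower mean 0.203% ± 0.0319 and the leaf mean 0.821% ± 0.791 (SD, n = 3). Flower overlapped neither root nor leaf. The two-sided exact permutation p was 0.1 for each of these contrasts. With 3 libraries a side no smaller value is possible, so neither could pass 0.05, and adjusted over the 6 contrasts of shares it was 0.2. Root and leaf overlapped (p = 1, exact permutation), and without leaf 41 the sign of their difference turned, from -0.370 to 0.0860 percentage points. Without it the difference of flower and leaf was -0.162 in place of -0.618 percentage points.

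Class i held far less, and its share varied little. Its root mean was 0.0494% ± 0.00368, its flower mean 0.0582% ± 0.00603 and its leaf mean 0.0601% ± 0.00843 (SD, n = 3). Every flower library exceeded every root library (p = 0.1, adjusted p = 0.2, exact permutation), while leaf overlapped both root (p = 0.3) and flower (p = 0.9) in the same exact test.

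**Figure D1:**
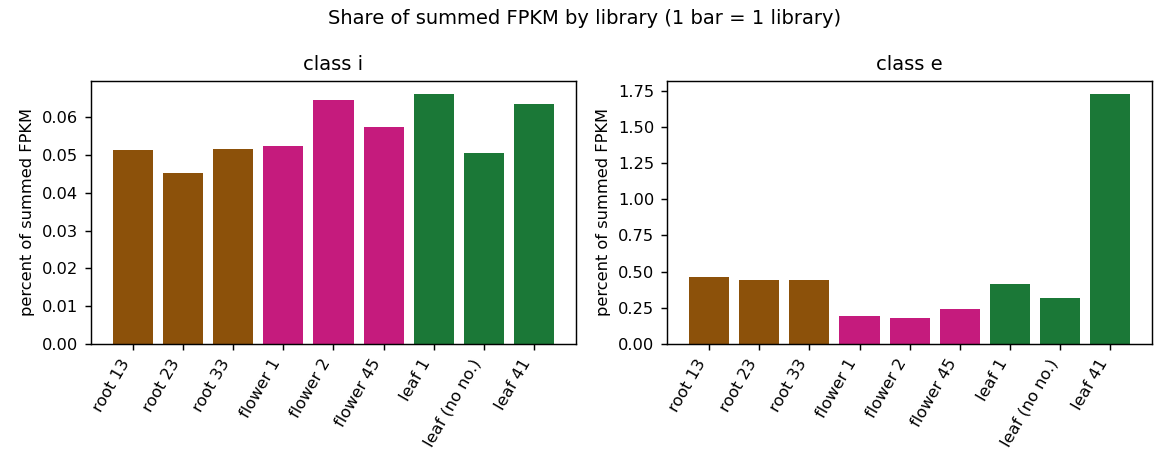
Share of summed FPKM held by class i (left) and class e (right), in percent, with 1 bar per library and colours for the tissues; the vertical scales differ. Class e reaches 1.73% in leaf 41 and 0.177% to 0.465% in the other libraries.

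The high class e share of leaf 41 came mostly from 3 transcripts. MSTRG.23378.2, MSTRG.12227.1 and MSTRG.12226.1 together made up 76.1% of class e FPKM in leaf 41, 29.0% to 32.8% in the other leaf libraries, 25.3% to 32.8% in root and 3.89% to 16.2% in flower. Without them, which were picked after their values were seen, class e held 0.320% ± 0.0253 of the root sum, 0.183% ± 0.0154 of the flower sum and 0.307% ± 0.10 of the leaf sum (SD, n = 3). Leaf 41 then stood at 0.419%, still the highest library, and every flower library below every other library. The pattern was not limited to these 3. Of the 249 tested class e transcripts, 14 (5.62%) had their highest value in leaf 41 by at least 3-fold over the next library, against 0.704% of all tested transcripts. For class i the count was 2 of 119 (1.68%).

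MSTRG.23378.2 (positions 228565 to 228821, minus strand) was the most abundant class e transcript in root and in leaf. It stood at 735, 888 and 1049 FPKM in root, 127, 39.9 and 179 in flower, and 516, 459 and 5992 FPKM in leaf 1, the unnumbered leaf library and leaf 41. All 3 root libraries lay above leaf 1 and the unnumbered leaf library, and flower was lowest throughout. It was lower in flower than in leaf by -3.52 ± 0.94 (SE) on the log2(FPKM + 1) scale (adjusted p = 0.0175, limma) and lower than in root by -3.17 ± 0.94 (adjusted p = 0.0220, limma). It spans 257 nt, entirely within the 3589 nt of reference CSA036528.1, whose own mean level was 0.0986 FPKM. At this span the FPKM rests on a short effective length. Both calls are near the threshold. Each was lost when flower 2 was left out (adjusted p = 0.0615 and 0.0729, limma), and the one against root also without root 23 (0.0601) or root 33 (0.0658). With no filter both were lost (0.0603 and 0.0737), and in a fit on 6 libraries the one against leaf (0.0697).

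MSTRG.12226.1 and MSTRG.12227.1 lie side by side on opposite strands and their values ran in parallel. They occupy positions 773601 to 774373 (minus) and 774251 to 774796 (plus) and overlap by 123 nt. MSTRG.12226.1 stood at 138, 224 and 132 FPKM in root, 26.9, 10.9 and 81.4 in flower and 137, 93.3 and 1664 in leaf. MSTRG.12227.1 stood at 146, 301 and 149 FPKM in root, 35.9, 15.4 and 93.2 in flower and 193, 150 and 1886.5 in leaf. In both, leaf 41 was the highest and flower 2 the lowest library. Another class e transcript, MSTRG.12228.1, follows 412 nt further on (positions 775209 to 775613, plus strand) at lower level, with 2.58, 5.49 and 4.41 FPKM in root, 0.288, 0.945 and 0.443 in flower and 6.67, 4.83 and 28.8 in leaf. In flower against leaf all 3 were called, with differences of -3.21 ± 1.05 for MSTRG.12226.1 (adjusted p = 0.0408, limma), -3.31 ± 0.96 for MSTRG.12227.1 (adjusted p = 0.0252, limma) and -2.84 ± 0.57 for MSTRG.12228.1 (adjusted p = 0.00457, limma). The call of MSTRG.12227.1 was lost without flower 1 or flower 2, with no filter and in a fit on 6 libraries (adjusted p = 0.0739 to 0.0840, limma). For MSTRG.12226.1, whose call is nearer to the threshold, and for MSTRG.12228.1 these fits were not examined. References in these loci were near 0, at a mean of 5.20e-09 FPKM for CSA022668.1 and 0.000418 FPKM for CSA022674.1. The locus of MSTRG.12226.1 also held other expressed transcripts, as this member made up 65.1% of its summed level. The use of strand in counting is not stated, so where the transcripts overlap their reads may not have been told apart. Apart from MSTRG.12227.1, these neighbours were chosen after their values were seen.

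**Figure D2:**
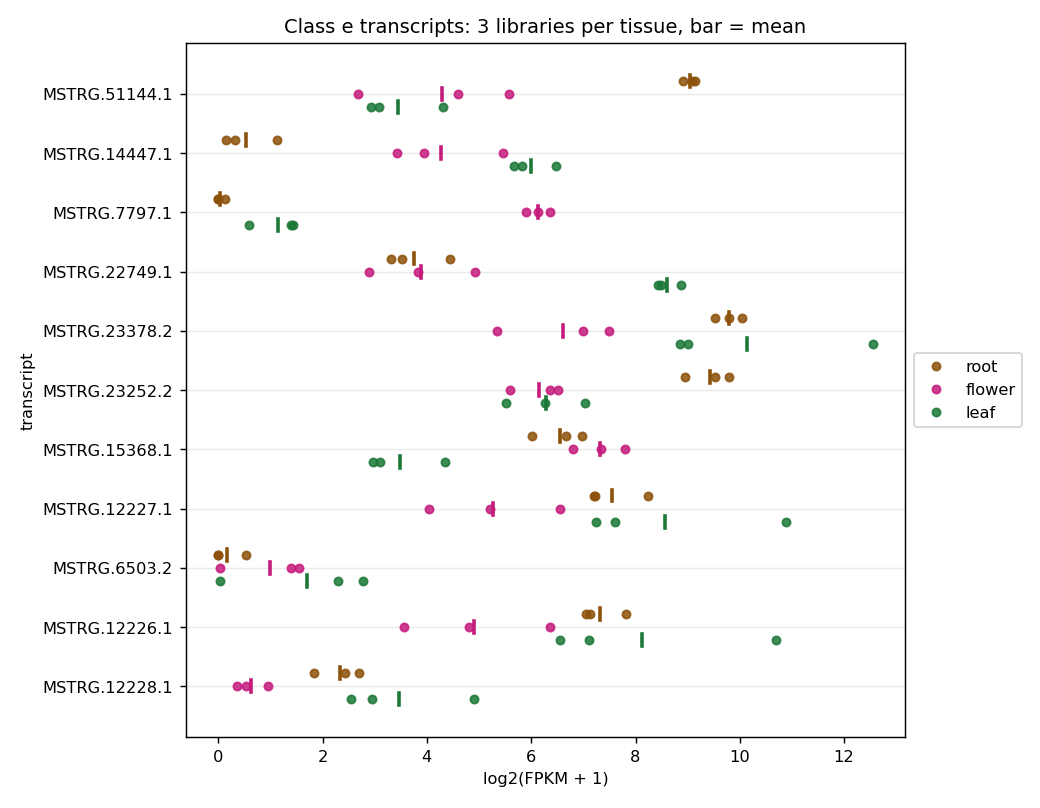
Levels of the class e transcripts named in the text on the log2(FPKM + 1) scale, with 1 point per library and a bar for the mean of each tissue. Leaf 41 is the leaf point far to the right for MSTRG.23378.2, MSTRG.12227.1 and MSTRG.12226.1.

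Root and leaf were compared over all 55806 tested transcripts, that is, the organ in the soil and the one that carries out photosynthesis. A transcript was called when its adjusted p (limma, Benjamini-Hochberg over all tested transcripts) was under 0.05 and its difference at least 1 on the log2(FPKM + 1) scale. Of class e, 49 were higher and 41 lower in root (19.7% and 16.5% of 249), and of class i, 16 were higher and 18 lower (13.4% and 15.1% of 119), together 65 and 59 of 368. Over all tested transcripts, 17.5% were higher and 13.4% lower. The median difference was -0.17 for class e, -0.20 for class i and -0.01 for all. With libraries scaled to equal sums, which moves the median of all transcripts to -0.28, the calls were 43 higher and 61 lower among 267 tested of class e and 14 and 27 among 126 of class i, and all transcripts turned as well, to 13.3% higher and 19.2% lower. Over both classes 124 were called (33.7%, against 30.9% of all). Without root 23 there were 70 (20.8%, against 20.8% of all), without root 33 79 (23.6% against 22.2%) and without leaf 1 also 79 (23.9% against 22.1%). Class e alone had 44 higher and 17 lower without leaf 1, where all transcripts had 14.3% and 7.82%. Without the unnumbered leaf library it had 43 and 22, where all had 15.1% and 8.39%. In class i the calls were 4 higher and 10 lower without root 23, 6 and 11 without root 33, 9 and 15 without root 13, 10 and 8 without leaf 1 and 10 and 10 without the unnumbered leaf library.

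MSTRG.51144.1 had the largest excess in root among class e. It stood at 543, 564 and 481 FPKM in root, 23.2, 5.43 and 46.5 in flower and 7.48, 6.58 and 18.8 in leaf. Root lay far above both other tissues, which overlapped. Root exceeded leaf by 5.61 ± 0.66 (adjusted p = 0.000281, limma) and flower was below root by -4.76 ± 0.66 (adjusted p = 0.000447, limma). The transcript (positions 85301 to 86517, minus strand) covers the last 623 nt of reference CSA029481.1 and runs 594 nt past its end. The rest of its locus followed the same order, at 799 to 1099 FPKM in root, 25.3 to 107 in flower and 2.08 to 48.1 in leaf, and its level relative to the rest was not called in any comparison. MSTRG.23252.2 (positions 84329 to 85366, minus strand) was also abundant in root, at 739, 884 and 494 FPKM, against 80.9, 90.3 and 47.2 in flower and 76.0, 44.9 and 130 in leaf. It was higher in root than in leaf by 3.15 ± 0.44 (adjusted p = 0.000646, limma).

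On the leaf side, MSTRG.14447.1 (positions 448592 to 449302, minus strand) was nearly absent from root, with 0.240, 0.112 and 1.19 FPKM. It stood at 14.4, 43.0 and 9.72 FPKM in flower and 50.1, 88.1 and 55.3 in leaf, so the 3 tissues did not overlap. Root was below leaf by -5.46 ± 0.52 (adjusted p = 9.32e-05, limma). Its own reference CSA020962.1 had a mean of 0.143 FPKM.

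Among class i, the root excess was largest at MSTRG.5252.5 (positions 1047216 to 1047618, plus strand). It stood at 51.4, 57.3 and 65.9 FPKM in root and at no more than 0.00232 FPKM in any flower or leaf library, values far below 1 fragment. The fitted difference of root and leaf, 5.88 ± 0.25 (adjusted p = 2.12e-06, limma), depends on the pseudocount and is no bound. Its host CSA018024.1 lies on the opposite strand, and the host's locus was also highest in root, at 257 to 301 FPKM against 6.99 to 29.5 in flower and 3.23 to 18.0 in leaf. MSTRG.2732.1 (positions 795838 to 796076, no strand) stood at 37.6, 51.8 and 29.0 FPKM in root, 0, 6.57 and 4.55 in flower and 0, 0 and 1.37 in leaf. Here the host's locus was at or near 0, with at most 0.0703 FPKM in any library. The class i transcript with the largest excess in leaf over root was MSTRG.7808.1 (positions 256858 to 257188, no strand), with 0.984, 0.42 and 0.356 FPKM in root, 11.8, 7.35 and 8.66 in flower and 11.7, 18.3 and 1.32 in leaf. Leaf 41 was close to root and flower was high throughout. The call, -2.41 ± 0.68 (adjusted p = 0.0235, limma), was lost when root 23, root 33, leaf 1 or the unnumbered leaf library was left out (adjusted p = 0.0745 to 0.0913), with no filter (0.0616) and in a fit on 6 libraries (0.0661). MSTRG.4079.1 (positions 806906 to 815669, minus strand) had the longest span of the tested class i transcripts and fills most of its host CSA000873.1, on the opposite strand. It stood at 0.672, 0.00702 and 0 FPKM in root, 1.40, 0.127 and 1.11 in flower and 2.84, 1.71 and 2.14 in leaf. Root was below leaf by -1.42 ± 0.36 (adjusted p = 0.0136, limma), a call lost without root 23, root 33 or leaf 1 (adjusted p = 0.0564 to 0.0641), and -0.47 and not called with a pseudocount of 5.

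Flower was compared with leaf, both organs of the shoot. Of class e, 33 were higher and 44 lower in flower (13.3% and 17.7%), and of class i 14 were higher and 14 lower (11.8% each), together 47 and 58. Over all tested transcripts 17.3% were higher and 14.0% lower. The median difference was -0.25 for class e, 0.02 for class i and -0.02 for all. With equal sums, where the median of all moves to -0.35, the calls were 26 higher and 73 lower among 267 tested of class e and 13 and 23 among 126 of class i, and all transcripts had 12.6% higher and 21.5% lower. Over both classes 105 were called (28.5%, against 31.3% of all), and 68 without flower 1 (20.6%, against 22.5% of all). In class e the calls were 15 higher and 34 lower without flower 1, 21 and 36 without flower 2 and 16 and 38 without flower 45. All transcripts then had 11.2% higher and 11.3% lower, 14.7% and 13.8%, and 12.6% and 12.9%. The class e calls were 30 and 26 without leaf 1 and 29 and 28 without the unnumbered leaf library. All transcripts then had 8495 higher and 5243 lower calls, and 8598 and 4955, where the main fit had 9659 and 7836. Lower calls of class e thus no longer outnumbered its higher ones, but stayed more frequent relative to them than over all transcripts. In class i the calls were 4 and 13 of 107 tested without flower 45 and 7 and 12 of 102 without flower 1. They were 9 and 14 of 103 without flower 2 and 13 and 9 of 106 without leaf 1. The shares or counts of all transcripts in these fits are those given above.

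MSTRG.7797.1 was the class e transcript that exceeded both other tissues most in flower. It stood at 81.2, 58.6 and 69.4 FPKM in flower, 1.62, 1.70 and 0.510 in leaf and 0.0866, 4.04e-09 and 1.52e-09 in root. The flower values lay close together and far above the rest. Flower exceeded leaf by 4.99 ± 0.31 (adjusted p = 1.17e-05, limma), and root by 6.09 ± 0.31 (adjusted p = 2.31e-06, limma), a fitted value that depends on the pseudocount. The member (positions 146054 to 148266, minus strand) covers all 1231 nt of reference CSA019937.1 and runs past both ends. It made up 1.16% of the summed level of its locus, whose other transcripts stood at 8104, 3298 and 6610 FPKM in flower, 24.8, 32.6 and 20.7 in leaf and 2.90, 0.955 and 1.43 in root. The fitted log ratio of the member to them was lower in flower than in leaf by -2.73 ± 0.35 (adjusted p = 0.00287, limma). Against root the fitted difference was -4.96 ± 0.35 (adjusted p = 0.000151, limma). In root and in leaf the member's own level is so low that this ratio rests on the pseudocount. Where the member stood at 4.04e-09 and 1.52e-09 FPKM in root, its raw share of the locus was below that of every flower library. Where it stood at 0.0866 FPKM the share was above them. The fitted value therefore does not show a lower share in flower than in root. With a pseudocount of 0.1 the difference of flower and leaf was -1.97 and not called (adjusted p = 0.0655, limma). MSTRG.15368.1 (positions 90517 to 91313, plus strand) was abundant in flower and in root, at 222, 110 and 162 and at 100.5, 125 and 63.4 FPKM, which overlap. Leaf was below both, with 6.85, 7.62 and 19.3 FPKM. Flower exceeded leaf by 3.84 ± 0.44 (adjusted p = 0.000233, limma).

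MSTRG.22749.1 had the largest excess of leaf over flower. It stood at 358, 344 and 467 FPKM in leaf, 6.41, 13.2 and 29.4 in flower and 10.5, 8.86 and 20.7 in root, so that flower and root overlapped and leaf lay above both. The difference was -4.72 ± 0.50 against leaf for flower (adjusted p = 0.000153, limma) and -4.84 ± 0.50 for root (adjusted p = 0.000143, limma). The transcript (positions 444964 to 445732, plus strand) encloses reference CSA034956.1, which had a mean of 87.7 FPKM against 140 for the member.

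In class i, MSTRG.7335.1 (positions 1025194 to 1026045, no strand) stood at 48.0, 5.92 and 42.6 FPKM in flower, 0.994, 0.534 and 0.475 in leaf and 2.89, 2.28 and 0.961 in root. These values correspond to 549, 81.0 and 621 fragments in flower, 21, 10 and 9 in leaf and 42, 26 and 13 in root. Flower 2 was far below the other flower libraries and still above all others. Flower exceeded leaf by 3.89 ± 0.68 (adjusted p = 0.00222, limma). MSTRG.24176.1 (positions 404005 to 404460, plus strand) stood at 0, 1.44 and 0.339 FPKM in flower, 0.642, 0.411 and 0.349 in root and 2.53, 5.66 and 17.5 in leaf, highest in leaf 41. Flower was below leaf by -2.35 ± 0.58 (adjusted p = 0.0120, limma), a call lost without flower 1 (adjusted p = 0.0537) and in a fit on 6 libraries (adjusted p = 0.0509).

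Flower was also compared with root. Of class e, 36 were higher and 58 lower in flower (14.5% and 23.3%), and of class i 22 were higher and 21 lower (18.5% and 17.6%), together 58 and 79. The shares of all tested transcripts were 20.1% and 20.7%. The median difference was -0.12 for class e, 0.22 for class i and 0 for all. The calls in class e moved with the library left out, as did those of all transcripts. There were 36 higher and 33 lower without root 33, where all transcripts had 18.6% and 14.8%. Without root 23 there were 33 and 37, where all had 18.4% and 14.0%. Without root 13 there were 34 and 42, where all had 19.8% and 17.4%. Without flower 1 there were 19 and 53, where all had 14.2% and 19.4%. Without flower 2 there were 31 and 56, where all had 18.8% and 21.4%, and without flower 45 23 and 52, where all had 15.3% and 20.0%. Here too the filter still asks for 3 libraries, which by construction removes transcripts seen in 1 tissue. Class i had 28 calls in place of 43 without root 23, root 33 or flower 1. Its lower calls were 11 without root 23 or root 33 and 12 without root 13, and its higher calls 11 without flower 1 and 13 without flower 45. The comparisons share libraries, so their calls are not independent.

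The class i transcript with the largest excess of flower over root was MSTRG.32890.1 (positions 69671 to 70849, minus strand). It stood at 104, 64.6 and 82.6 FPKM in flower, 1.70, 1.52 and 2.32 in root and 26.0, 23.7 and 1.89 in leaf, where leaf 41 fell within the root range. Flower exceeded root by 4.88 ± 0.74 (adjusted p = 0.000722, limma). Its host CSA015584.1, on the opposite strand, was also highest in flower: the host's locus stood at 1544, 1610 and 1800 FPKM there, at 252, 231 and 203 in root and at 772, 813 and 147 in leaf. Relative to the host's locus the member was higher in flower than in root by 2.03 ± 0.33 (adjusted p = 0.00402, limma), which became 0.85 and was no longer called with a pseudocount of 5.

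MSTRG.40000.1 (positions 36665 to 37686, no strand) was among the 2 most abundant class i transcripts in flower and in leaf and differed little between tissues. It stood at 32.5, 35.3 and 33.9 FPKM in root, 37.6, 47.1 and 37.0 in flower and 21.9, 23.9 and 40.1 in leaf, from 507 to 959 fragments per library. No comparison was called. Its host's locus stood at only 0.853 to 5.54 FPKM, so the intronic transcript made up 93.7% of their sum. MSTRG.42544.1 (positions 9860 to 10082, no strand), the other class i transcript leading in leaf, was uneven: 44.3, 44.7 and 0.885 FPKM in leaf with the low value in leaf 41, 12.4, 0 and 1.18 in flower and 3.14, 0 and 0 in root. It was not called in any comparison. MSTRG.6503.2, the class e transcript with the longest span among those tested (5308 nt), was not called either, with 5.84, 3.89 and 0.0201 FPKM in leaf, 1.63, 0.0185 and 1.94 in flower and 0.435, 0 and 0 in root.

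**Figure D3:**
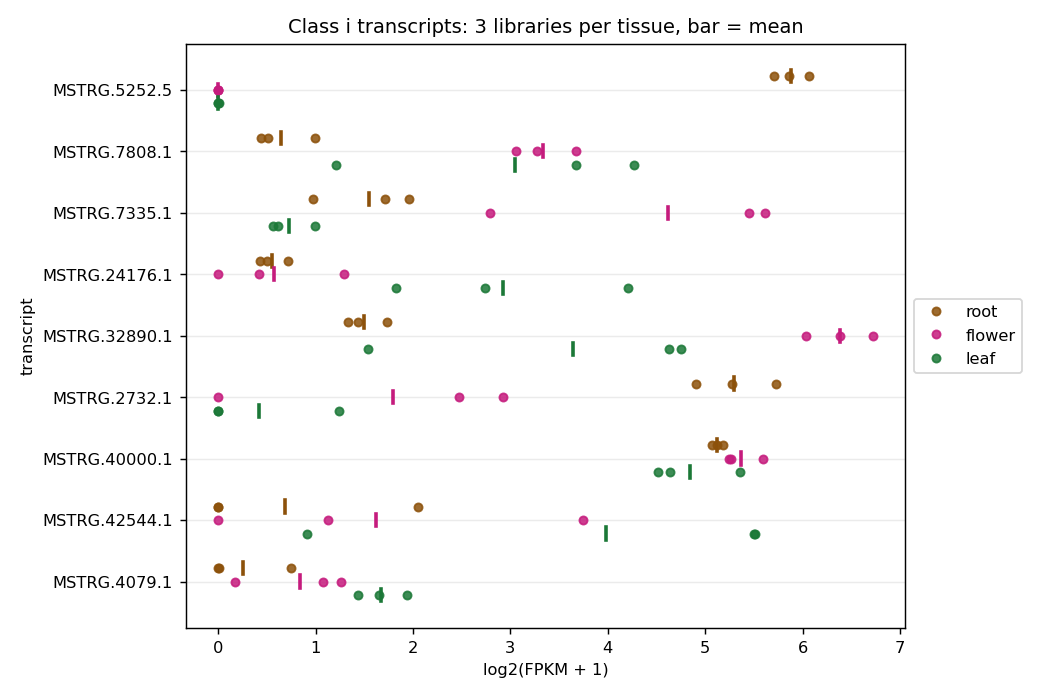
Levels of the class i transcripts named by the rule on the log2(FPKM + 1) scale, with 1 point per library and a bar for the mean of each tissue. MSTRG.40000.1 stays between 21.9 and 47.1 FPKM in all 9 libraries, while MSTRG.5252.5 is near 0 outside root.

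Transcripts called higher in one tissue than in both others were counted as enriched. Root-enriched were 40 of class e (16.1%) and 13 of class i (10.9%), against 12.4% of all tested transcripts. Flower-enriched were 25 (10%) and 11 (9.24%), against 12.5%. Leaf-enriched were 24 (9.64%) and 7 (5.88%), against 6.97%. Whether these shares differ from those of all transcripts was not tested. Their median level in the own tissue was 8.22, 16.4 and 8.57 FPKM for class e in root, flower and leaf, and 5.06, 11.6 and 3.16 FPKM for class i. With equal sums the leaf-enriched counts were 38 and 16. Calls below leaf then rose over all transcripts too, from 13.4% to 19.2% for root and from 14.0% to 21.5% for flower. Leaving out 1 root library gave 20 to 24 root-enriched transcripts of class e and 4 to 7 of class i, and leaving out 1 flower library gave 12 to 14 and 4 to 7 flower-enriched ones. Without leaf 1 or the unnumbered leaf library, 7 or 8 of class e and 3 or 4 of class i were leaf-enriched. Calls over all transcripts fell as well: in root against leaf, from 30.9% to between 20.8% and 24.7% with 1 root library left out. The unchanged filter by construction removes transcripts seen in 1 tissue, so these counts do not show that the members are unstable. Some transcripts passed 1 FPKM in the 3 libraries of a single tissue and in no library elsewhere: 15 of class e and 8 of class i in root (3.46% and 3.23%, against 2.28% of all transcripts), 15 and 8 in flower (3.46% and 3.23%, against 2.33%), and 14 and 4 in leaf (3.23% and 1.61%, against 1.56%).

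**Figure D4:**
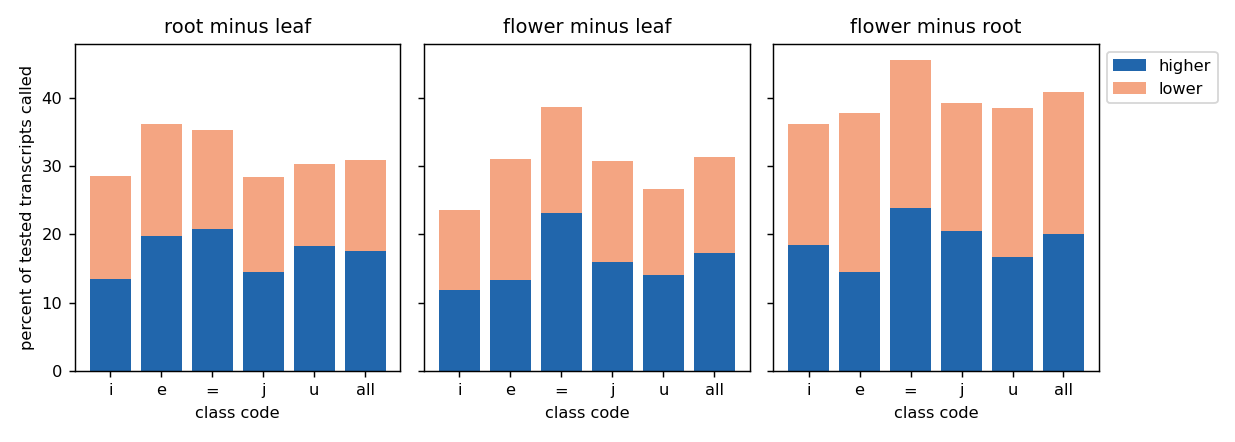
Percent of tested transcripts called higher (blue) and lower (orange) in each comparison, for class i, class e, reference transcripts (=), splice variants (j), intergenic transcripts (u) and all tested transcripts. In flower minus root, class e has 14.5% higher and 23.3% lower calls where all transcripts have 20.1% and 20.7%.

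Each member was next set beside the gene it belongs to: class e beside the other transcripts of its locus, class i beside the locus of its host. Tested class e transcripts were often above their reference. They were selected on their own level, while the reference had to pass no threshold, which favours the member. Of the 243 tested class e transcripts with an overlapping reference, the member exceeded the reference in all 9 libraries in 90 cases (37.0%), in none in 23 and in some in 130. The reference itself did not reach the threshold for testing in 150 of the 243. Their median levels were 2.37 FPKM for the member and 0.207 FPKM for the reference. As background, StringTie, which the submitters' processing notes name, divides fragments among the transcripts of a locus, so the levels of member and reference are not independent.

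Class i was mostly lower than its host. Of the 119 tested, 51 were below the host's locus in all 9 libraries, another 2 were never above it but equal to it at 0 in some library, 7 were above it in all and 59 were mixed, with medians of 1.67 FPKM for the member and 8.06 FPKM for the host's locus. For 25 the host's locus did not reach the threshold, so the intronic transcript was measured where its host barely was. Among the 94 pairs in which both reached it, the member made up a median of 12.9% of the pair (quartiles 4.27% and 37.9%). Taken per library, the median was 12.3% ± 1.87 for root, 6.51% ± 0.47 for flower and 8.85% ± 2.21 for leaf (SD, n = 3). This median was 6.67% for the 46 on the opposite strand, 28.5% for the 24 on the same strand and 35.8% for the 24 without a strand. In class e, over 114 pairs, it was 40.9% (quartiles 27.1% and 58.5%), and the median per library was 38.0% ± 2.95 for root, 39.5% ± 2.43 for flower and 44.9% ± 2.68 for leaf (SD, n = 3).

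**Figure D5:**
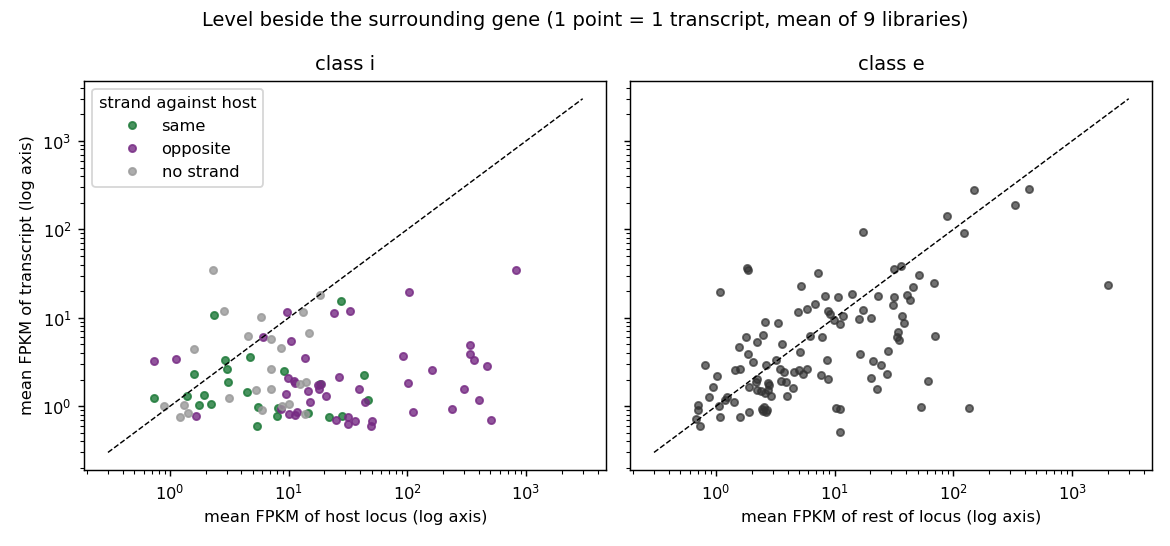
Mean FPKM over 9 libraries of each class i transcript against its host's locus (left) and of each class e transcript against the rest of its locus (right), both axes logarithmic; the dashed line marks equal levels. Class i lies mostly below the line, and its opposite-strand members include the hosts with the highest levels.

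Members called between tissues mostly had a partner that differed in the same direction. For flower and root, 42 called class e transcripts had a measured partner, which did not overlap between the tissues in the same direction in 32 cases and in the opposite direction in 2. The corresponding counts were 34 and 0 of 43 for flower and leaf, and 31 and 2 of 40 for root and leaf. In class i they were 23 and 6 of 35 for flower and root, 14 and 5 of 20 for flower and leaf, and 15 and 4 of 25 for root and leaf. Of all tested transcripts, taken in either direction, 56.1% did not overlap between flower and root, 46.2% between flower and leaf and 49.2% between root and leaf. These shares cover single transcripts, called or not. No share was calculated for the partners of all called transcripts, so whether the counts are particular to the members cannot be judged. By strand, in flower and root, the partner went the same way for 17 of 18 opposite-strand members, 5 of 9 same-strand members and 1 of 8 without a strand. The difference between these strand groups was not tested, and reads of opposite strands may not have been told apart.

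The level relative to the partner was tested directly, over all 32219 pairs of a transcript with the rest of its locus or, for class i, with its host's locus. In root against leaf, 21 of 94 class i transcripts (22.3%) and 13 of 114 of class e (11.4%) were called, where 11.4% of all pairs were. In flower against leaf the counts were 17 (18.1%) and 10 (8.77%), against 6.07%. In flower against root they were 34 (36.2%) and 17 (14.9%), against 19.0%. In 87 of the 94 class i pairs the partner is another locus, while in other pairs it is the same one, so the percentages do not compare like with like. Where a member is at or near 0 and its partner changes, the fitted ratio follows the pseudocount and the partner. MSTRG.43371.1, listed at 0 in root, gave -7.80 for flower minus root, although member and host were both highest in flower. Of the 34 class i calls in flower against root, 21 were on the strand opposite to the host. How many calls rest on the pseudocount was not counted. The counts fell with fewer libraries. In flower against leaf, class i had 6 to 10 calls, whichever of the flower or leaf libraries was left out. In root against leaf it had 10 or 11 without root 23, root 33, leaf 1 or the unnumbered leaf library. The filter was unchanged in these fits. Whether class i fell more than all pairs was not tested.

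Some pairs, chosen here after their values were seen, show how member and partner could differ in level or in tissue. MSTRG.43371.1 (class i, positions 419299 to 419882, minus strand) stood at 4.89, 3.37 and 2.30 FPKM in flower and was listed at 0 in all root and leaf libraries. Its host CSA000272.1, on the opposite strand, had a locus level of 1752, 863 and 997 FPKM in flower and of at most 4.59 FPKM elsewhere. Member and host were both highest in flower. MSTRG.8398.1 (class i, positions 541072 to 541330, plus strand) stood at 3.15, 7.31 and 4.85 FPKM in root, 0 in flower, and 0, 0 and 1.04 in leaf. Its host's locus, on the opposite strand, was lowest in root, with 4.10 to 4.96 FPKM against 7.49 to 9.36 in flower and 17.0 to 24.6 in leaf. At a span of 259 nt a listed 0 allows a higher level than at 1000 nt, so no fold is given. MSTRG.19556.1 (class e, positions 259 to 964, minus strand) stood at 60.8, 200 and 25.6 FPKM in flower, 7.0, 8.64 and 7.11 in root and 1.27, 0.828 and 1.52 in leaf. The rest of its locus stood at 4.88 to 6.04 FPKM in root and at no more than 0.467 FPKM in any flower or leaf library, so the member was highest in flower and its partner in root. Its relative level was higher in flower than in root by 5.70 ± 0.63 (adjusted p = 0.000812, limma), a fitted value that depends on the pseudocount, since the partner is near 0 in flower. MSTRG.5906.1 (class e, positions 756448 to 760512, minus strand) was low in every library, at most 1.13 FPKM, while the rest of its locus stood at 39.6, 34.4 and 24.8 FPKM in flower and at most at 0.146 FPKM elsewhere.

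Within a tissue the libraries ranked class e members much as they ranked all transcripts. Across the 249 tested members, Pearson's r of log2(FPKM + 1) lay between 0.91 and 0.97 for pairs of root libraries, 0.79 and 0.93 for flower and 0.75 and 0.95 for leaf. Across the 119 tested class i members it lay between 0.84 and 0.93 in root, 0.57 and 0.87 in flower and 0.51 and 0.91 in leaf. Across all tested transcripts it was 0.87 to 0.94, 0.83 to 0.93 and 0.76 to 0.95. These are correlations across transcripts, which are not independent replicates, and low levels and short spans add counting error to class i.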

How the data were processed

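RNA of 3 root, 3 flower and 3 leaf libraries was measured after removal of ribosomal RNA, per the labels' protocols. The authors deposited 1 table of FPKM values per assembled transcript. HISAT2, StringTie and Cuffnorm were used, per the submitters' processing notes; for their versions, the strand setting and the genome build, nothing is given in the sources. Columns were matched to samples by title, and 1 leaf column only to its tissue. No column was left unused (0).

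The test was limma 3.58.1 in R 4.3.3, with a trend of the variance on level, 1 mean per tissue and 6 residual degrees of freedom, on log2(FPKM + 1) of transcripts that passed 1 FPKM in 3 or more libraries. Differences on this scale understate changes of low transcripts. Levels relative to a partner were log2 ratios fitted in the same way, over all transcripts sharing a locus; the host pairs of class i were added after the table was seen. The script was tested on simulated data. Alternatives were pseudocounts of 0.1 and 5, a filter of FPKM 5, no filter, equal sums, quantile normalization, fits on 6 libraries, spans of 400 nt or more and each library left out. Named transcripts are, per class, the largest called difference in each direction of each comparison whose groups do not overlap, the 2 highest means per tissue and the longest tested span. Members, lists and rules were chosen with earlier results of these data known. Fragments per FPKM were read from transcripts of 600 to 3000 nt without a strand and alone in their locus, where 100% of low values lay within 0.05 of a whole number. No sequence is printed, since no genome was used here.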

Additional observations from a re-analysis of the deposited data

How the results depend on the processing

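Of the recalculated differences of named transcripts, 453 kept their direction and call, 42 kept the direction and lost the call, and 0 reversed; for levels relative to the partner the numbers were 115, 6 and 0. Pairs below give class i first and class e second, and in sets of 3 both classes together come last. With a pseudocount of 5 the calls were 7, 41 and 48 in root against leaf, 10, 45 and 55 in flower against leaf, and 16, 50 and 66 in flower against root; root-enriched were 4 and 20 and leaf-enriched 1 and 12. With a filter of FPKM 5, which leaves fewer transcripts to test, the calls were 9, 41 and 50, then 9, 38 and 47, then 15, 49 and 64. Both classes together then had 45.5%, 42.7% and 58.2% called, against 41.8%, 43.5% and 55.1% of all transcripts. Root-enriched were 4 and 21, flower-enriched 5 and 13, and leaf-enriched 0 and 7. Enriched shares of all transcripts were not calculated at these settings. With equal sums, leaf-enriched were 16 and 38. Without spans under 400 nt, class i had 22 calls among 85 tested in root against leaf, where 31.4% of all transcripts were called. It then had 8 root-enriched and 4 leaf-enriched transcripts. Relative to the partner, a pseudocount of 0.1, chosen after seeing the data, gave 13 and 7 calls in root against leaf and 7 and 4 in flower against leaf.

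With 1 library left out in turn, calls ranged from 14 to 39, 56 to 98 and 70 to 137 in root against leaf, from 17 to 28, 49 to 77 and 68 to 105 in flower against leaf, and from 28 to 43, 69 to 101 and 97 to 144 in flower against root. Over all tested transcripts, the shares called ranged from 20.8% to 36.8%, 22.5% to 33.8% and 32.4% to 45.8% in the same comparisons. Root-enriched members ranged from 4 to 16 and 20 to 45, flower-enriched from 4 to 13 and 12 to 26, and leaf-enriched from 3 to 8 and 7 to 23. Relative to the partner, the ranges were 10 to 23 and 6 to 15 in root against leaf, 6 to 15 and 3 to 10 in flower against leaf, and 22 to 34 and 6 to 19 in flower against root. The filter then asks for 3 of fewer libraries, which by construction removes transcripts seen in 1 tissue. The difference in class e share, root minus leaf (-0.370 percentage points), ranged from -0.622 to 0.0860, and was 0.0129 without the 3 leading transcripts. That of class i, flower minus leaf (-0.00193), ranged from -0.00672 to 0.00118 and was 0.00562 without spans under 400 nt. The causes of the other changes were not tested. No paired analysis was possible because the titles of flower and leaf alone have numbers in common (1 and 2), and the number of leaf 2 is on no column. The column of the unnumbered leaf library carries 23, as does root 23, which is a single shared number and matches no leaf title. Depth limits the low members: at the shallowest library 1 FPKM at 1000 nt is 14.0 fragments, and class i members are mostly shorter.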

Other observations

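In 4 places 2 of these transcripts overlap on opposite strands: MSTRG.12226.1 and MSTRG.12227.1 by 123 nt, MSTRG.2560.1 and MSTRG.2561.1 by 116 nt (all class e), MSTRG.27880.6 and MSTRG.27881.1 by 2823 nt, and MSTRG.43410.1 and MSTRG.43411.1 by 409 nt (all class i). Of the 129 untested class i transcripts, 81 had a host locus that reached the threshold for testing.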
